A study of Arabidopsis with 12 samples.

Results

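Wild-type (WT) Arabidopsis seedlings sampled 3 days after the end of heat were compared with WT control seedlings across all genes. The members were chosen by their titles alone: 3 libraries of WT 3 days and 3 of WT control, 6 of the 12 libraries of the series. The other 6 hold the same sampling points in the double mutant mac3a3b. The deposited table has 37825 loci, of which 29275 were above 0 in any of the 6 WT libraries and 22462 passed a filter on low values over all 12 libraries and were tested.

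Both WT groups were labelled as seedlings, grown on MS medium with sucrose, and the labels give neither strain nor age. The treatment protocol mentions 37 °C for part of the material and no length of heat. The titles say control where the series text says 0 hours after heat, so a control may be an unheated plant or one at the start of recovery. No unheated sample of the 3-day age is labelled, so heat, age, growth and the hour of sampling cannot be told apart in any result below. Whether the replicates came from separate cultures is not given, and where they did not, p-values cover technical spread alone. Expression is given in TPM, a locus's share of all transcripts of its library after correction for length, and the sequencing depth behind it is unknown. Because these are whole seedlings, fewer cells of a type and less RNA per cell cannot be told apart.

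Heat unfolds proteins, and plants answer through heat shock factors that switch on chaperones, among them small heat shock proteins that hold unfolded proteins in a state from which HSP70 and HSP100 can rescue them. Chloroplasts and mitochondria keep small genomes of their own, but most of their proteins are encoded in the nucleus, and their transcripts carry a poly(A) tail only in part, which matters for libraries selected with oligo dT. Transposable elements are normally silenced by DNA methylation and small RNAs, and some retroelements of Arabidopsis are known to be activated by heat.

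Most of the transcriptome differed. Of the 22462 genes tested, 12339 (54.9%) rose at 3 days and 5932 (26.4%) fell (limma on log2(TPM + 1), Benjamini-Hochberg adjusted p under 0.05), and 5875 (26.2%) rose and 2583 (11.5%) fell at least 2-fold. The median gene was 0.39 higher on this log2 scale. TPM is a share of the library, and several of the most abundant transcripts fell. With median-of-ratios scaling, which centres the libraries on the typical gene, the median was 0.01, and 8924 genes (39.7%) rose and 8872 (39.5%) fell. Groups of genes are therefore described below by the counts of their members that rose and fell, with the counts after this scaling marked scaled, and many also by their median change less that of all genes. Shares of members near 54.9% and 26.4%, or 39.7% and 39.5% when scaled, are those of any gene and no result about a group.

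The RNA pool was less dominated by a few genes at 3 days. The 100 most abundant genes held 17.3, 17.65 and 17.78% of all TPM at 3 days, against 31.4, 30.9 and 30.7% in the controls, and the groups were far apart. Genes at 1 TPM or more numbered 21127, 21139 and 20963 at 3 days, against 19616, 19643 and 19678 in the controls. In the controls the 10 highest genes all served photosynthesis, with antenna proteins, the small subunit of Rubisco and PSBR of photosystem II. CAB1, a chlorophyll-binding protein of the light-harvesting antenna, had 1269, 1448 and 1672 TPM at 3 days, against 24786, 21618 and 22022 TPM in the controls. RBCS1A, the small subunit of Rubisco, had 1798, 1959 and 2183 TPM at 3 days, against 12854, 13266 and 13473 TPM in the controls. At 3 days the highest protein-coding messages of the nucleus, leaving out a chromosome 2 stretch of mitochondrial-like loci described below, came from other genes: TCTP, a growth-related protein of the cytosol, with 5989.6 ± 204 TPM at 3 days and 1631 ± 19.4 TPM in controls, GASA1, a gibberellin-responsive peptide, with 4729 ± 711 TPM at 3 days and 254 ± 14.2 TPM in controls, and the lipid-transport family member AT4G23680 with 3192 ± 82.1 TPM at 3 days and 75.4 ± 14.04 TPM in controls (SD, n = 3 each). None of these 5 genes overlapped between groups. Antenna and Rubisco genes have near-identical copies that can share reads, so values of single members are uncertain.

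**Figure D1:**
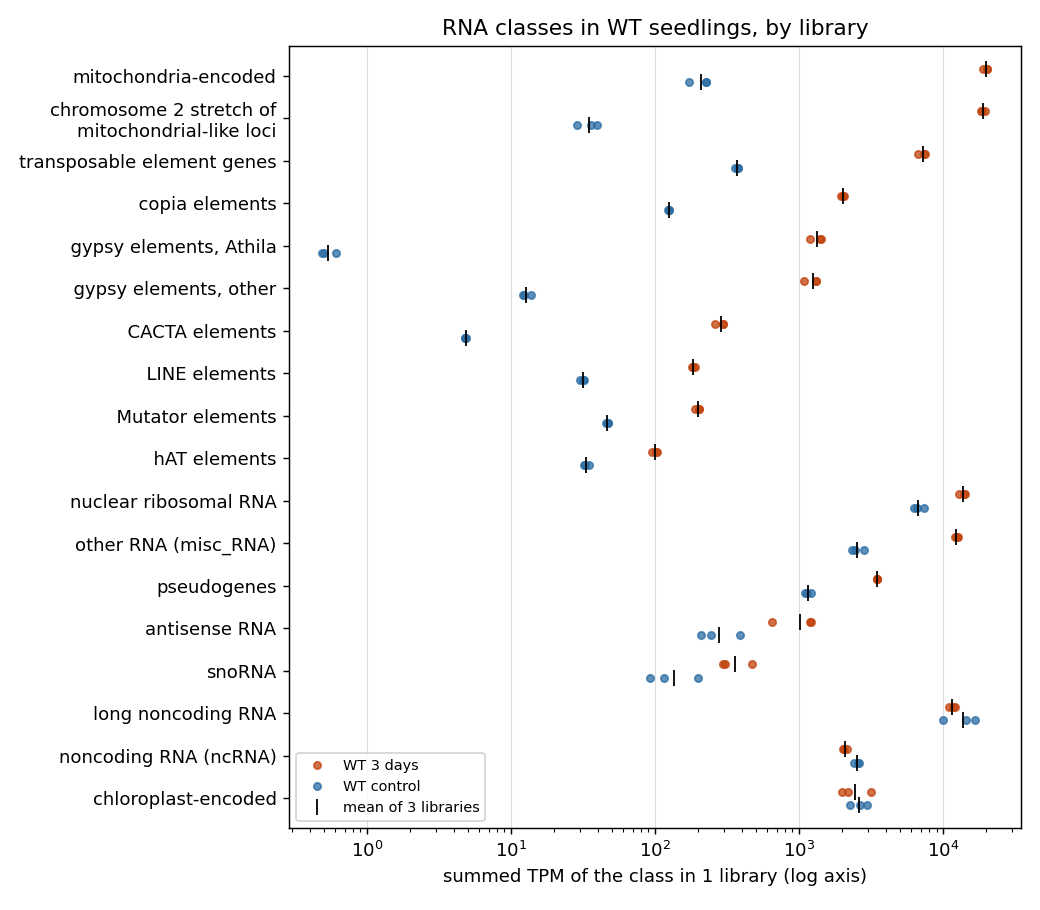
Summed TPM of each RNA class (log axis) in each of 3 WT 3 days libraries and 3 WT control libraries, with the mean as a bar. The chromosome 2 stretch shares loci with other classes, and the element families are parts of the transposable element genes. Mitochondria-encoded loci sum to 19004 to 20263 TPM at 3 days and 173 to 225 TPM in the controls, while the chloroplast-encoded sums overlap.

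Among the annotated RNA classes, mitochondria-encoded transcripts had the largest ratio of summed TPM between the groups. The 52 loci of the mitochondrial genome summed to 19004, 20263 and 20205 TPM at 3 days, against 173, 225 and 224 TPM in the controls, a 95.7-fold higher mean at 3 days. Without the long ribosomal RNA genes the sum was 6011 ± 146 TPM at 3 days and 12.5 ± 2.09 TPM in controls, 483-fold higher. An exact two-sided permutation test of 3 against 3 libraries gave p = 0.1 for each of these sums, the smallest it allows. With median-of-ratios scaling the first ratio was 69.9.

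Of 29 mitochondria-encoded protein genes, 19 were above every control in every 3-day library, 1 was below, 5 overlapped and 4 were at 0 in all WT libraries. Across all loci above 0, 49.8% were above and 22.7% below in this way. Subunits of ATP synthase were the highest 3 of them. atp1, its alpha subunit, had 1384, 1383 and 1471 TPM at 3 days, against 2.16, 2.44 and 2.18 TPM in the controls, and rose by 8.76 ± 0.097 log2 units (adjusted p = 4.35e-14). atp4 had 1022, 1082 and 1080.4 TPM at 3 days, against 0.93, 2.12 and 1.46 TPM in the controls, and atp6 had 678, 659.9 and 711 TPM at 3 days, against 0.49, 0.98 and 0.64 TPM in the controls. A further subunit, atp8, also named after its values were seen, had 332 ± 10.2 TPM at 3 days and 0.373 ± 0.222 TPM in controls. The first 3 genes were at most 2.44 TPM in any control library.

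Genes of the respiratory chain were higher at 3 days too. The genes of this paragraph and the next, other than cox2, nad1, ccmFN2 and the rRNAs, were named after their values were seen. cox2 and cox1, subunits of cytochrome c oxidase, had 547 ± 9.63 TPM at 3 days and 0.137 ± 0.1501 TPM in controls, and 83.2 ± 2.75 TPM at 3 days and 0.343 ± 0.101 TPM in controls. cob, the cytochrome b of complex III, had 72.4, 67.5 and 77.8 TPM at 3 days, against 0.33, 0 and 0.05 TPM in the controls. Of the subunits of NADH dehydrogenase (complex I), nad7 had 242, 248 and 252 TPM at 3 days, against 0.78, 1.99 and 1.57 TPM in the controls, nad9 60.3, 69.05 and 51.8 TPM at 3 days, against 0, 0.13 and 0 TPM in the controls, nad4 53.8 ± 0.741 TPM at 3 days and 0.503 ± 0.231 TPM in controls, and nad3 38.4 ± 7.398 TPM at 3 days and 0.587 ± 0.713 TPM in controls. nad1 had 154, 87.2 and 92.8 TPM at 3 days and was listed at 0 in all 3 controls, so no fold is given. These genes rose by 6.70 (nad7), 5.87 (nad9), 5.20 (nad4) and 4.71 (nad3) log2 units.

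The cytochrome c maturation genes, whose products attach heme, rose as well: ccmFN2 had 317, 339 and 345 TPM at 3 days, against 0, 0.36 and 0.15 TPM in the controls, ccmFN1 115 ± 4.47 TPM at 3 days and 0.117 ± 0.0153 TPM in controls and ccmFC 108 ± 2.897 TPM at 3 days and 0.263 ± 0.162 TPM in controls. Among the ribosomal proteins, rps12 had 250.02, 259.98 and 270.3 TPM at 3 days, against 1.99, 0 and 0.61 TPM in the controls, and rpl2 215, 247 and 256 TPM at 3 days, against 0.18, 0 and 0 TPM in the controls, while rpl5 had 38.4 ± 4.72 TPM at 3 days and 0.343 ± 0.119 TPM in controls, and rps3 at its locus ATMG00090 had 211 ± 7.74 TPM at 3 days and 0.787 ± 0.187 TPM in controls. rps7 was above 0 in 1 library of each group, at 7.3, 0 and 0 TPM at 3 days and 0, 0.01 and 0 TPM in the controls, and rpl16 was listed at 0 at 3 days, against 0.82, 0.05 and 1.49 TPM in the controls. The mitochondrial rRNAs were the most abundant RNAs of the organelle: rrn18 had 7717, 8111 and 7871 TPM at 3 days, against 132, 168 and 177 TPM in the controls, and rrn26 had 5399, 6179 and 6162 TPM at 3 days, against 30.7, 43.7 and 33.4 TPM in the controls. All 20 mitochondrial tRNA loci were at 0 in each WT library.

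**Figure D2:**
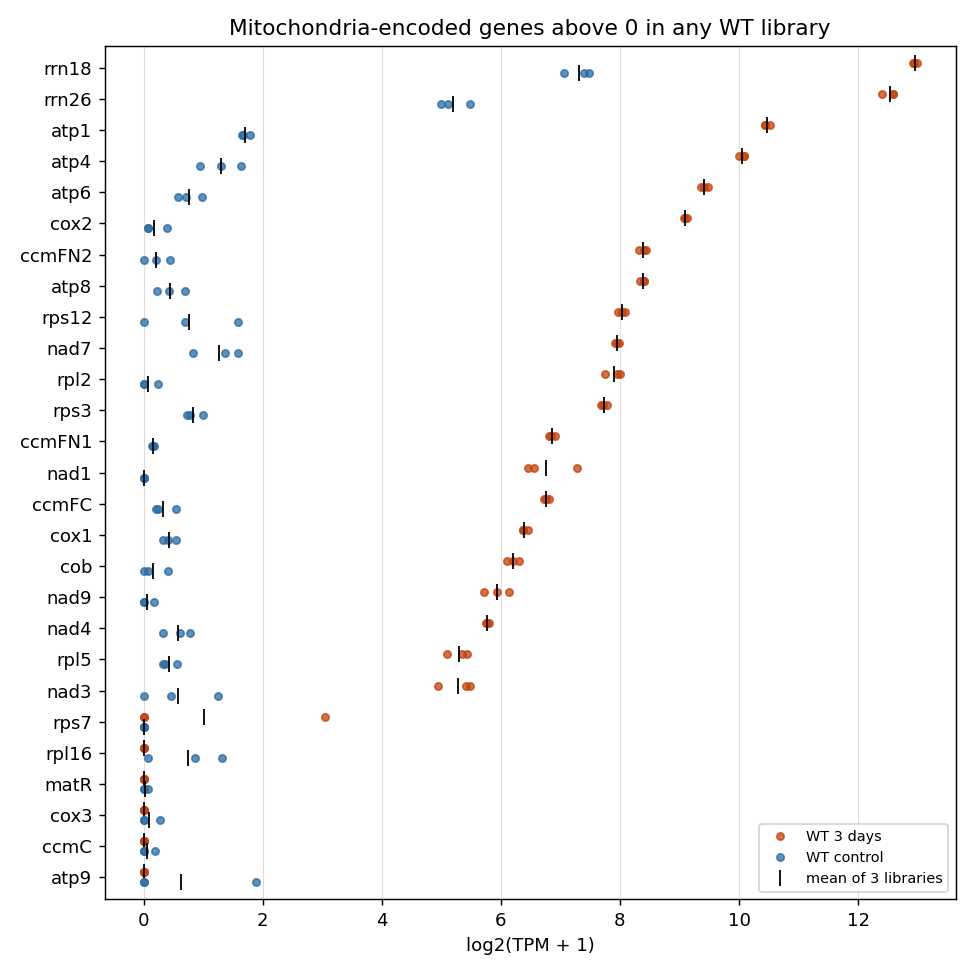
Expression of the 27 mitochondria-encoded genes above 0 in any WT library, as log2(TPM + 1) in each library, ordered by their mean at 3 days. The groups are apart for 21 genes from rrn18 to nad3, and the 6 others lie below 1.5 TPM in every library, other than atp9 in 1 control and rps7 in 1 library of 3 days.

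A copy of mitochondrial DNA lies in the nuclear genome on chromosome 2, and its loci moved with the mitochondrial genes. The 184 loci of that stretch, bounded by loci tied to mitochondrial genes, summed to 18574, 18364 and 19429 TPM at 3 days, against 28.9, 35.9 and 39.6 TPM in the controls. The 69 loci that the table's Swiss-Prot hit or their values tie to a mitochondrial gene, many of them described only as hypothetical proteins or retrotransposons, summed to 5204 ± 321 TPM at 3 days and 8.98 ± 0.628 TPM in controls. At 3 days 3 of them were above 0 with the values of the mitochondrial rps12, atp8 and nad3 in each of the 6 WT libraries, so the values of these 3 genes are uncertain. The locus AT2G07671, annotated as an ATP synthase subunit C family protein, is not among these 69 loci or in their sum. It had 5180.4, 4990.2 and 5063 TPM at 3 days, against 2.22, 4.86 and 2.01 TPM in the controls. The gene atp9 in the mitochondrial genome, which encodes that subunit, was listed at 0 in every 3-day library and at 0, 0 and 2.69 TPM in the controls. Likewise AT2G07687, annotated as cytochrome c oxidase subunit III and named after its values were seen, had 378 ± 32.8 TPM at 3 days and 0.197 ± 0.237 TPM in controls, while cox3 was at 0 in all 3-day libraries. Such near-identical copies share reads, so whether these transcripts come from the organelle or from chromosome 2 cannot be told apart in this table. The flanking nuclear genes did not move together: ABCC13, an ABC transporter beside the stretch and also named after its values were seen, had 2.93, 2.71 and 3.25 TPM at 3 days, against 6.73, 6.25 and 6.49 TPM in the controls, and fell (-0.92 ± 0.087, adjusted p = 1.12e-06). MCM5, a subunit of the replicative helicase just beyond it, had 930.5, 1139 and 1227 TPM at 3 days, against 16.2, 16.5 and 17.3 TPM in the controls, a change of 5.95 ± 0.082, and its value is uncertain beside the other subunits MCM2, MCM3, MCM4 and MCM6, which were named after it for comparison and rose by 1.53, 1.35, 1.86 and 1.43. The long noncoding RNA AT2G05425 on the same side, named after its values were seen, rose too (5.44 ± 0.58). It had 24.8, 63.2 and 47.9 TPM at 3 days and was at 0 in the controls. The nearest loci on the other side of the stretch were too low to be tested. Where the rise ends is therefore not shown.

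Nuclear genes that serve mitochondrial gene expression also rose, by less. In a list of polymerases, RNA helicases, splicing and translation factors of mitochondria, 18 of 19 tested members rose and none fell (17 and 0 with median-of-ratios scaling), with a median 0.74 above that of all genes. RPOT2, a phage-type RNA polymerase of mitochondria and plastids, had 26.4, 27.6 and 27.3 TPM at 3 days, against 3.75, 4.07 and 4.64 TPM in the controls, and PMH1, a mitochondrial RNA helicase, had 94.7, 96.6 and 90.5 TPM at 3 days, against 23.2, 24.3 and 24.8 TPM in the controls. Neither gene overlapped between groups. Pentatricopeptide repeat proteins, RNA-binding proteins that mostly process organelle transcripts, rose in 334 and fell in 26 of 418 tested of 477 (284 and 57 scaled), with a median 0.55 above all genes. Nuclear genes of mitochondrial ribosomal proteins rose in 10 and fell in 3 of 20, a direction that turned with scaling (6 higher and 11 lower), and their median lay -0.17 from that of all genes. Single genes known to answer to mitochondrial stress rose. AOX1A, the alternative oxidase, had 137 ± 2.98 TPM at 3 days and 24.98 ± 0.315 TPM in controls. NAC13, a factor that carries stress signals out of mitochondria, had 93.2 ± 2.42 TPM at 3 days and 4.74 ± 0.33 TPM in controls. LON4, a Lon-type protease, had 8.35 ± 0.465 TPM at 3 days and 0.237 ± 0.0252 TPM in controls. The mitochondrial chaperonin HSP60 had 429 ± 7.85 TPM at 3 days and 69.9 ± 1.52 TPM in controls. Of the list of retrograde and mitochondrial stress genes, 11 of 17 rose and 4 fell, among them GUN4 and GUN5 of chlorophyll synthesis (-1.95 ± 0.082 and -0.85 ± 0.10). Scaled, 8 were higher and 6 lower, near the shares of all genes, and the list's median lay 0.27 above that of all genes.

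Chloroplast-encoded transcripts overlapped between groups in their sum. The 134 loci summed to 1983, 2174 and 3142 TPM at 3 days, against 2244, 2962 and 2643 TPM in the controls (exact permutation test, p = 0.7). Of the 88 with a protein description, 52 were tested, and 7 rose and 7 fell, both below the shares of all genes. rbcL, the large subunit of Rubisco, had 14.8, 27.4 and 52.1 TPM at 3 days, against 32.8, 65.9 and 35.4 TPM in the controls, and did not pass the test (-0.60 ± 0.41, adjusted p = 0.202). psaB, a core protein of photosystem I, had 3.63, 5.09 and 10.1 TPM at 3 days, against 7.38, 11.9 and 8.85 TPM in the controls (adjusted p = 0.0947). psbC, a core antenna protein of photosystem II, fell narrowly (-0.47 ± 0.20, adjusted p = 0.0459) with overlapping libraries, a call that was lost without either of WT 3 days replicates 1 and 2 or of WT control replicates 2 and 3 (-0.44 to -0.31), and also with no filter on low values, with the 6 WT libraries alone and with no intensity trend. WT 3 days replicate 3 had the highest chloroplast sum. Without it rbcL (-1.04) and psaB (-0.95) fell past the threshold, as they did with median-of-ratios scaling (-1.03 and -0.97).

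Single chloroplast-encoded genes passed the test in both directions. Of the ATP synthase, atpE had 3.33, 3.51 and 3.73 TPM at 3 days, against 10.6, 14.6 and 10.6 TPM in the controls, and fell (-1.50 ± 0.24, adjusted p = 9.76e-05), and atpB had 4.96, 7.33 and 8.31 TPM at 3 days, against 10.7, 13.7 and 11.04 TPM in the controls, and fell too (-0.72 ± 0.16). rpoB, a subunit of the plastid RNA polymerase, had 1.06, 1.48 and 2.37 TPM at 3 days, against 5, 4.19 and 5.78 TPM in the controls, and fell (-1.21 ± 0.17, adjusted p = 3.71e-05). ycf4, an assembly factor of photosystem I, rose (1.34 ± 0.25, adjusted p = 3.33e-04) at 2.75 ± 1.01 TPM at 3 days and 0.453 ± 0.1002 TPM in controls. TIC214 at its locus ATCG01000, a component of the chloroplast import machinery, rose by 1.09 at 1.42 ± 0.881 TPM at 3 days and 0.09 ± 0.0854 TPM in controls. These are low values of a few TPM, and the 46 loci without a description were at 0 in 42 cases, with overlapping groups in the other 4. The chromosome 2 locus AT2G07739, named after its values were seen, is described as a Ycf1 protein, the family of TIC214. It lies among the mitochondrial-like loci described above and had 539.7 ± 19.2 TPM at 3 days and 0.56 ± 0.367 TPM in controls. Whether TIC214 shares reads with it was not tested.

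The nuclear genes of photosynthesis fell together. Of the light-harvesting antenna list, 19 of 20 tested members fell and none rose (scaled 0 higher and 19 lower), with a median -3.29 relative to all genes, and the list summed to 13335 ± 1740.02 TPM at 3 days and 115794 ± 7172 TPM in controls. LHCB2.3 had 3.15, 3.27 and 4.44 TPM at 3 days, against 1687, 1606 and 1589.9 TPM in the controls, and LHB1B1 had 50.7, 52.7 and 57.8 TPM at 3 days, against 6225, 5662 and 5886 TPM in the controls, the largest decreases under the naming rule (-8.47 ± 0.091 and -6.76 ± 0.16). LHB1B1 has near-identical relatives that can share its reads. Photosystem and electron transport subunits fell in 27 of 28 (scaled 1 higher and 27 lower, median -2.59). PSAD-2, a stromal subunit of photosystem I, had 98.6 ± 16.95 TPM at 3 days and 1569.6 ± 32.95 TPM in controls, and PSAN, its lumenal subunit, 234 ± 22.05 TPM at 3 days and 2642 ± 99.2 TPM in controls. FD1, a ferredoxin, was the member that rose (0.63 ± 0.052).

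Carbon fixation and pigment synthesis fell too. Of the Calvin cycle and photorespiration list, 23 of 28 fell and 4 rose (26 and 0 scaled). CP12-2, a small regulator of the cycle, had 23.61 ± 2.53 TPM at 3 days and 182 ± 10.2 TPM in controls. Chlorophyll and carotenoid synthesis fell in 25 of 28 (scaled 1 higher and 26 lower). PORA and PORB, which reduce protochlorophyllide in light, had 0.183 ± 0.0289 TPM at 3 days and 12.5 ± 1.01 TPM in controls and 125 ± 8.47 TPM at 3 days and 1040.4 ± 48.9 TPM in controls. PDS3, phytoene desaturase of carotenoid synthesis, rose (0.67 ± 0.055) at 109 ± 9.24 TPM at 3 days and 67.9 ± 2.22 TPM in controls. Plastid ribosomal proteins encoded in the nucleus fell in 42 of 51 and rose in 5 (scaled 3 higher and 46 lower, median -1.57). Plastid transcription and RNA processing genes were split, with 8 higher and 14 lower of 24 (scaled 5 higher and 16 lower). CRR2, an RNA-processing protein of plastids, had 45.2 ± 0.5398 TPM at 3 days and 6.59 ± 0.472 TPM in controls, while CRB, a chloroplast RNA-binding protein, had 116 ± 18.4 TPM at 3 days and 475 ± 3.01 TPM in controls. Among photoprotection genes 11 of 17 fell and 4 rose (scaled 3 higher and 13 lower). ELIP1, an early light-induced protein, rose, at 54.6 ± 15.2 TPM at 3 days and 6.103 ± 0.319 TPM in controls.

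Transposable element genes were the class with the next largest ratio of summed TPM between the groups. The 3845 loci summed to 6709, 7391 and 7538 TPM at 3 days, against 376, 359 and 374 TPM in the controls, 19.5-fold higher at 3 days (exact permutation p = 0.1). The ratio was 14.3 with median-of-ratios scaling and 18.0 without the 15 loci inside the chromosome 2 stretch. Loci at 1 TPM or more numbered 423, 442 and 441 at 3 days, against 61, 58 and 57 in the controls. Of all loci of the class, 1085 were above every control in every 3-day library, 29 below, 957 overlapped and 1774 were at 0. Leaving out those at 0, the number above is close to the 49.8% of all loci, and the number below lies far under their 22.7%.

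Families differed in how much they carried in the controls. Copia elements, long terminal repeat retrotransposons, summed to 2013 ± 55.1 TPM at 3 days and 124 ± 1.01 TPM in controls. The Athila elements, a gypsy group that sits mostly around centromeres, summed to 1192, 1386 and 1417 TPM at 3 days, against 0.5, 0.49 and 0.61 TPM in the controls, with none of 541 loci at 1 TPM in any control. Other gypsy elements summed to 1241 ± 132 TPM at 3 days and 12.7 ± 0.984 TPM in controls. CACTA DNA transposons had 285 ± 19.8 TPM at 3 days and 4.83 ± 0.0624 TPM in controls, LINE elements 184 ± 5.14 TPM at 3 days and 31.3 ± 1.12 TPM in controls, Mutator elements 199 ± 6.93 TPM at 3 days and 46.6 ± 0.802 TPM in controls, and hAT elements 99.9 ± 3.78 TPM at 3 days and 33.1 ± 1.37 TPM in controls. No family's groups overlapped among these 7.

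Single loci, named after their values were seen, are given as examples and are not the highest of the class in order. The highest mean at 3 days was that of AT2G07769, a copia locus inside the chromosome 2 stretch, with 326 ± 27.1 TPM and 0 in the controls. The copia locus AT1G48710 had 319.6, 312 and 303 TPM at 3 days and was listed at 0 in all 3 controls. AT1G11265, also copia, had 179, 184 and 176 TPM at 3 days, against 0.02, 0 and 0.02 TPM in the controls. The gypsy locus AT5G33434 had 254, 303 and 321 TPM at 3 days, and AT1G41660 of the Athila group had 125, 134 and 148 TPM. Both were at 0 in the controls. These elements occur in many similar copies, so a value belongs to a family more surely than to its locus.

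In a list of genes of RNA silencing and DNA methylation, which also holds demethylases and microRNA factors, 26 of 35 rose and 4 fell (19 and 9 scaled). AGO2, an Argonaute protein, had 20.1 ± 0.0666 TPM at 3 days and 5.36 ± 0.255 TPM in controls, and DCL1, which cuts microRNA precursors, 26.9 ± 0.146 TPM at 3 days and 8.64 ± 0.442 TPM in controls. DML1, a DNA demethylase, fell (-2.29 ± 0.094) at 0.837 ± 0.107 TPM at 3 days and 7.97 ± 0.311 TPM in controls.

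Other RNA classes differed by smaller ratios or came from few loci. Nuclear ribosomal RNA loci summed to 12879, 14239 and 13941 TPM at 3 days, against 6233, 7372 and 6613 TPM in the controls, 2.03-fold higher at 3 days and 1.48-fold with median-of-ratios scaling. AT2G01020 and AT3G41979 had identical values in every library (4581 ± 342 TPM at 3 days and 617 ± 106 TPM in controls), while AT3G41768 overlapped at 3893, 4323 and 5358 TPM at 3 days, against 4808, 6365 and 5340.5 TPM in the controls. Loci of the class misc_RNA summed to 12384 ± 339.7 TPM at 3 days and 2538 ± 242 TPM in controls, pseudogenes to 3468 ± 24.9 TPM at 3 days and 1149 ± 52.2 TPM in controls, and antisense RNAs to 1017 ± 315 TPM at 3 days and 279.5 ± 93.6 TPM in controls. Long noncoding RNAs overlapped in their sum at 11578 ± 559 TPM at 3 days and 13653 ± 3394 TPM in controls (exact permutation p = 0.4), while their loci at 1 TPM or more numbered 674, 712 and 700 at 3 days, against 501, 522 and 539 in the controls. The 67 assembled loci without a locus name summed to 848 ± 67.9 TPM at 3 days and 134 ± 5.53 TPM in controls.

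**Figure D3:**
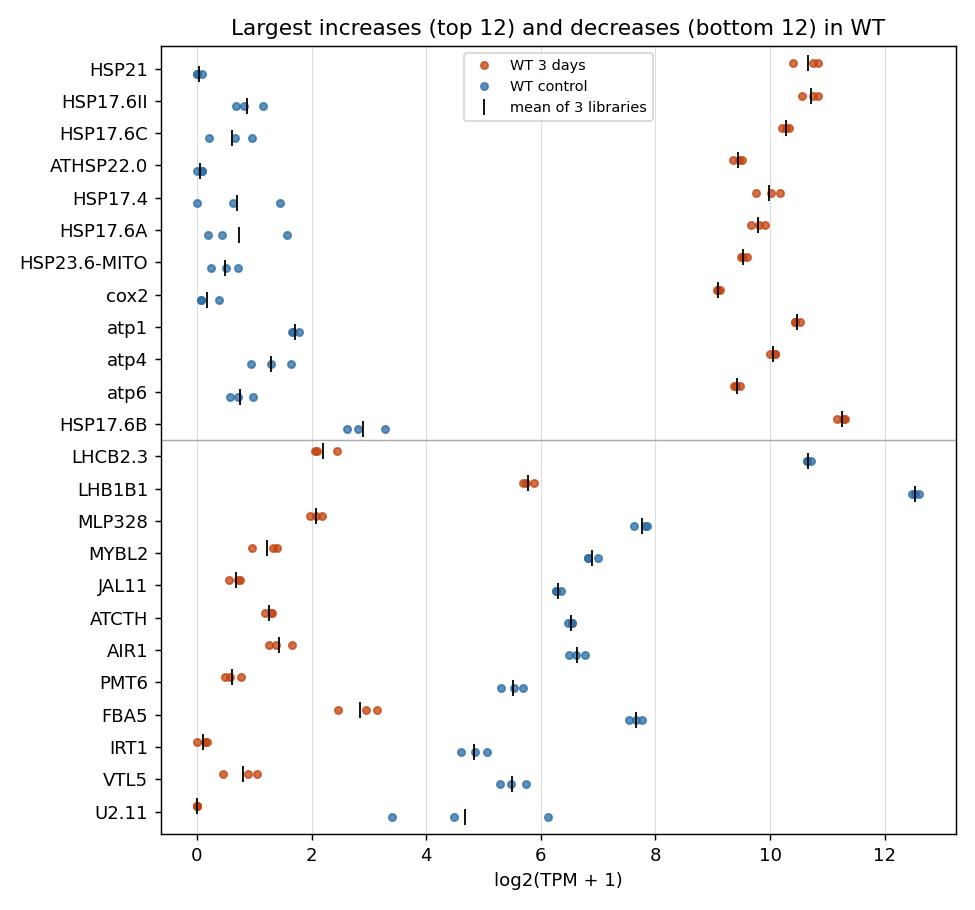
Expression as log2(TPM + 1) in each WT library of the 12 largest increases and 12 largest decreases named by rule, WT 3 days in orange and WT control in blue. The groups are apart in all 24 genes, and HSP21 lies near 0 in the controls.

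Chaperone genes were high at 3 days. All 14 tested members of the small heat shock protein list rose, with a median 8.31 above all genes. HSP21, the chloroplast member, had 1342, 1721 and 1824 TPM at 3 days, against 0.06, 0 and 0 TPM in the controls. HSP17.6B had 2540.1, 2478 and 2288 TPM at 3 days, against 5.12, 6.02 and 8.7 TPM in the controls, and HSP17.6C 1285, 1241 and 1185 TPM at 3 days, against 0.15, 0.58 and 0.94 TPM in the controls, both of the cytosol. ATHSP22.0 of the endomembrane system and HSP23.6-MITO of mitochondria had 696 ± 37.4 and 740.1 ± 26.8 TPM at 3 days, against 0.04 ± 0.0346 and 0.413 ± 0.2301 TPM in controls. The large chaperones and co-chaperones rose in 22 of 23 and none fell (20 and 1 scaled). HSP70 had 1558 ± 24.96 TPM at 3 days and 15.1 ± 1.41 TPM in controls, HSP90.1 774 ± 20.1 TPM at 3 days and 5.53 ± 1.08 TPM in controls, and FKBP65, a prolyl isomerase that works with HSP90, 1299 ± 21.1 TPM at 3 days and 6.97 ± 0.13 TPM in controls. The mitochondrial MTHSC70-2 had 369.8 ± 5.63 TPM at 3 days and 31.1 ± 0.739 TPM in controls.

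The transcription factors and the clean-up machinery rose with them. Among heat shock transcription factors and their partners 13 of 18 rose and 3 fell (scaled 13 higher and 5 lower). HSFA2, which extends the heat response, had 71.5, 62.2 and 61.2 TPM at 3 days, against 0.63, 0.5 and 1.04 TPM in the controls, HSFA3 had 53.8 ± 0.6001 TPM at 3 days and 1.56 ± 0.266 TPM in controls, and DREB2C, which acts upstream of it, 46.7 ± 5.26 TPM at 3 days and 0.957 ± 0.293 TPM in controls. HSFC1 fell (-0.78 ± 0.11). In the list of heat memory genes, which overlaps the chaperone lists, 10 of 11 rose (scaled 9 higher and 0 lower). Genes of the unfolded protein response, which relieves stress in the endoplasmic reticulum, rose in 17 of 19 (scaled 14 higher and 1 lower), with ATERDJ3A, a J-protein of that compartment, at 52.5 ± 4.21 TPM at 3 days and 1.54 ± 0.127 TPM in controls, and the transcription factor NAC103 at 27.4 ± 1.42 TPM at 3 days and 1.06 ± 0.191 TPM in controls. Its membrane-bound activators BZIP28 and BZIP17 rose by 2.07 and 1.79. Proteasome subunits rose in 49 of 54 and fell in 2, but in 29 and 12 with median-of-ratios scaling. RPN2B of the regulatory particle had 93.5 ± 2.197 TPM at 3 days and 24.01 ± 1.03 TPM in controls. Autophagy genes rose in 24 of 30 (scaled 18 higher and 6 lower), and the ATG8 genes, whose products coat autophagosomes, split: ATG8D had 111 ± 7.17 TPM at 3 days and 18.4 ± 2.32 TPM in controls, and ATG8E 43.5 ± 3.002 TPM at 3 days and 122 ± 5.54 TPM in controls. CUL2, a cullin, had 39.98, 35.1 and 33.2 TPM at 3 days, against 0.02, 0.1 and 0.09 TPM in the controls, AtCDC48B, an AAA-type segregase, 207 ± 4.69 TPM at 3 days and 4.87 ± 0.936 TPM in controls, and APX2, a heat-inducible ascorbate peroxidase, 249, 254 and 249 TPM at 3 days, against 0.06, 0.06 and 0 TPM in the controls.

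The genes that make and process RNA rose as a group. Of the KEGG pathway Spliceosome 278 of 338 tested genes rose and 33 fell, of Ribosome biogenesis in eukaryotes 116 of 136 and 9, and of RNA polymerase 47 of 58 and 6. With median-of-ratios scaling Spliceosome had 225 higher and 69 lower, Ribosome biogenesis in eukaryotes 95 higher and 20 lower, and RNA polymerase 39 higher and 10 lower. Their medians lay 0.57, 0.58 and 0.60 above all genes. MAC5C, an RNA-binding relative of the MOS4-associated complex, had 21.9 ± 0.9798 TPM at 3 days and 0.41 ± 0.23 TPM in controls, and SR45a, a splicing factor known to respond to heat, 294 ± 8.63 TPM at 3 days and 25.3 ± 2.41 TPM in controls. The splicing factors RS40 and SCL30A fell (-0.64 ± 0.057 and -0.58 ± 0.050). smB, a core protein of the spliceosome, had 283 ± 10.3 TPM at 3 days and 49.04 ± 3.38 TPM in controls. NUC-L2, a nucleolin of ribosome assembly, had 36.8, 38.6 and 40.9 TPM at 3 days, against 0.63, 0.6 and 0.7 TPM in the controls, while FIB2, a fibrillarin, fell by a little (-0.30 ± 0.091). DEAD box helicases rose in 31 of 36 (scaled 26 higher and 6 lower). PUM9, an RNA-binding Pumilio protein, had 53.01, 55.8 and 61.8 TPM at 3 days, against 0.06, 0 and 0.06 TPM in the controls. NRPB8A, a subunit shared by nuclear RNA polymerases, had 116 ± 3.09 TPM at 3 days and 15.6 ± 1.21 TPM in controls.

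Ribosomal protein genes were split. Cytosolic ribosomal protein genes rose in 92 and fell in 89 of 218 tested (55 and 133 scaled), with a median -0.41 relative to all genes. EMB3105 and PRPL35, 2 plastid ribosomal proteins, were the members with a symbol that fell most in the KEGG pathway Ribosome, at 129.6 ± 9.23 TPM at 3 days and 621 ± 37.7 TPM in controls, and 102 ± 9.27 TPM at 3 days and 453 ± 19.6 TPM in controls. Aminoacyl-tRNA biosynthesis had 39 higher and 18 lower of 70, and 24 and 33 scaled, so its direction depended on the scaling.

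Histone genes fell. Of 40 tested histone genes 33 fell and 4 rose (34 and 4 scaled), with a median -2.39 relative to all genes and a sum of 1403 ± 108 TPM at 3 days and 4829 ± 332 TPM in controls. HTA6, a histone H2A, had 17.1, 17.97 and 16.8 TPM at 3 days, against 212, 236 and 229 TPM in the controls, and HMGB2, a high-mobility-group protein, 25.7, 29.99 and 29.5 TPM at 3 days, against 303, 311 and 301 TPM in the controls. CYC1BAT and CYCB1;4, B-type cyclins that drive mitosis, had 4.3 ± 0.233 TPM at 3 days and 34.7 ± 1.45 TPM in controls, and 2.27 ± 0.05 TPM at 3 days and 16.03 ± 1.57 TPM in controls. Of all cyclins 15 fell and 7 rose of 25 (scaled 6 higher and 16 lower). Replication and repair genes moved the other way: the KEGG pathway DNA replication rose in 48 of 63 and fell in 5, Mismatch repair in 42 and 2 of 53, and Homologous recombination in 58 and 6 of 82. Scaled, these pathways had 39 higher and 14 lower, 32 higher and 11 lower, and 48 higher and 21 lower. They list 85, 75 and 117 genes, and those not tested did not pass the filter. A gene can pass it through its WT 3 days libraries alone, so these counts can lean towards genes that rose. In the whole list of cell cycle and DNA replication genes 21 rose and 24 fell of 49 (scaled 18 higher and 27 lower).

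Several regulators of the DNA damage response rose steeply. Of that list 18 of 26 rose and 2 fell (16 and 6 scaled). NAC044 and NAC085, factors that halt the cell cycle before mitosis after DNA damage, had 95.2, 99.2 and 103 TPM at 3 days, against 1.02, 0.33 and 0.75 TPM in the controls, and 23.8, 23.2 and 28.7 TPM at 3 days, against 0.11, 0 and 0 TPM in the controls. SMR5, a cyclin-dependent kinase inhibitor, had 46.5, 24.2 and 16.7 TPM at 3 days, against 0, 1.29 and 0 TPM in the controls. MSH7 and PMS1 of mismatch repair had 23.9 ± 0.659 TPM at 3 days and 4.58 ± 0.178 TPM in controls, and 17.5 ± 1.06 TPM at 3 days and 3.33 ± 0.269 TPM in controls. No library of these genes overlapped between groups.

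Sugar and starch genes moved in both directions. GPT2, which moves glucose 6-phosphate into plastids, had 224, 182 and 169.7 TPM at 3 days, against 1.04, 1.01 and 1.33 TPM in the controls, and BAM5, a beta-amylase, 43.5, 50.1 and 38.2 TPM at 3 days, against 0.41, 0.3 and 0.55 TPM in the controls. APE2, the triose phosphate exporter of chloroplasts, had 77.5, 82.8 and 92.96 TPM at 3 days, against 669.95, 654 and 682 TPM in the controls, and APL1, a subunit of the enzyme that starts starch synthesis, 51.6 ± 7.101 TPM at 3 days and 245 ± 11.3 TPM in controls. In the carbon starvation list 13 of 22 fell and 7 rose (scaled 5 higher and 15 lower). SEN1 at the locus AT4G35770, a gene induced by darkness, had 2.83, 1.91 and 2.85 TPM at 3 days, against 70.96, 53.2 and 96.4 TPM in the controls, and bZIP1, a factor of low-energy signalling, 2.74 ± 0.169 TPM at 3 days and 31.2 ± 3.62 TPM in controls. Of the SWEET sugar transporters, SWEET10 and SWEET1 rose (3.98 ± 0.11 and 3.32 ± 0.11) and SWEET16 fell (-1.52 ± 0.13). FBA5, a fructose-bisphosphate aldolase, had 4.53, 6.69 and 7.81 TPM at 3 days, against 216, 200.4 and 185 TPM in the controls, and FUM2, the cytosolic fumarase, 5.17 ± 0.783 TPM at 3 days and 82.1 ± 1.94 TPM in controls. In the whole starch and sucrose list 19 rose and 13 fell of 38 (scaled 15 higher and 21 lower). No gene named here overlapped between groups.

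Root markers and genes of iron and nitrogen fell more often than they rose. In the list of root markers 13 of 23 fell and 4 rose (scaled 0 higher and 18 lower). PYK10, a root beta-glucosidase, had 222, 184 and 153 TPM at 3 days, against 2840.3, 2461 and 2460.5 TPM in the controls, and CASP2, which builds the Casparian strip, 0, 0 and 0.12 TPM at 3 days, against 8.81, 7.18 and 9.15 TPM in the controls. The summed TPM of the root list was 313 ± 53.2 TPM at 3 days and 2834 ± 236 TPM in controls. IRT1, the iron importer of roots, had 0.1, 0.13 and 0 TPM at 3 days, against 32.3, 27.9 and 23.3 TPM in the controls, and VTL5, a vacuolar iron transporter-like protein, 0.85, 1.06 and 0.37 TPM at 3 days, against 52.3, 43.6 and 38.1 TPM in the controls. In the iron list 17 fell and 10 rose of 33 (scaled 9 higher and 21 lower), and FER2, an iron-storing ferritin, rose (3.74 ± 0.15). The per-library values of these genes do not overlap.

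NRT1.5, which loads nitrate into the xylem, had 22.03, 22.7 and 21.5 TPM at 3 days, against 207, 166 and 191 TPM in the controls, and 18 of 31 nitrogen genes fell while 7 rose (scaled 5 higher and 23 lower). Among aquaporins 12 of 22 fell and 5 rose (scaled 3 higher and 16 lower), led by TIP4;1 at 0.543 ± 0.458 TPM at 3 days and 20.9 ± 1.82 TPM in controls, and PIP2;5 rose (2.44 ± 0.069). Class III peroxidases, which act in cell walls, fell in 36 of 57 and rose in 15 (scaled 14 higher and 40 lower), with PER27 at 1.76 ± 0.0611 TPM at 3 days and 67.1 ± 2.38 TPM in controls. Phosphate genes gave 11 higher and 5 lower of 21, and equal numbers of 9 with median-of-ratios scaling. Sulfur genes gave 7 higher and 10 lower of 26 (scaled 5 higher and 16 lower). The part that the share of root tissue in the samples had in these values was not tested.

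Markers of other tissues were counted in the same way. Leaf mesophyll markers, mostly photosynthesis genes, fell in 14 of 15 (scaled 1 higher and 14 lower), with CAT2 at the locus AT4G35090, a catalase, as the member that rose (1.25 ± 0.070). Guard cell lineage markers fell in 12 and rose in 8 of 23 (scaled 5 higher and 13 lower). Vascular markers rose in 14 and fell in 5 of 24, but in 8 and 9 with median-of-ratios scaling: XCP2, a protease of xylem vessels, had 237 ± 34.7 TPM at 3 days and 58.3 ± 6.47 TPM in controls, and SUC2, the sucrose loader of phloem, 19.7 ± 0.844 TPM at 3 days and 76.95 ± 3.25 TPM in controls. Shoot meristem markers had 10 of 16 members tested, 4 higher and 3 lower (scaled 1 higher and 3 lower). Markers of pollen and flower and of seed and embryo had 5 tested of 19 and of 20. SESA1, a seed storage albumin, had 5.76, 17.1 and 9.94 TPM at 3 days and was at 0 in the controls.

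Cell wall and surface genes divided by family. Expansins, which loosen walls during growth, fell in 13 of 19 tested (scaled 2 higher and 15 lower), and EXPA8 had 3.24, 3.38 and 3.09 TPM at 3 days, against 59.4, 59.1 and 61.1 TPM in the controls. Xyloglucan endotransglucosylases rose in 15 and fell in 7 of 26 (scaled 12 higher and 9 lower), and XTR6 had 272, 211 and 204 TPM at 3 days, against 6.98, 4.95 and 4.93 TPM in the controls. In the broader cell wall growth list 18 rose and 13 fell of 37, with 12 and 20 scaled. Wax and cutin genes fell in 17 of 27 (scaled 1 higher and 23 lower, median -1.14), LACS1, a long-chain acyl-CoA synthetase, among them at 16.98 ± 0.318 TPM at 3 days and 84.7 ± 4.08 TPM in controls. Among lipid transfer proteins, LTP4 had 479.6, 264 and 282 TPM at 3 days, against 0.33, 0.33 and 0.09 TPM in the controls, and LTP3 654 ± 113 TPM at 3 days and 15.1 ± 0.961 TPM in controls.

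Hormone lists were mixed. Auxin genes fell in 22 and rose in 12 of 40 (scaled 5 higher and 28 lower), with LAX3, an auxin importer, at 1.71 ± 0.13 TPM at 3 days and 20.6 ± 0.771 TPM in controls. Cytokinin genes fell in 19 and rose in 5 of 34 (scaled 4 higher and 26 lower), and CRF6, a cytokinin response factor, was the steepest riser (3.55 ± 0.089). Jasmonate genes rose in 22 and fell in 7 of 31 (scaled 18 higher and 9 lower), with VSP2, a storage protein induced by jasmonate, at 55.03 ± 17.04 TPM at 3 days and 6.497 ± 0.607 TPM in controls, while PDF1.2, a defensin of the same hormone, fell (-1.59 ± 0.17). Abscisic acid and dehydration genes gave 19 higher and 8 lower of 41, but 14 and 19 scaled. LTI65, a dehydration-responsive protein, had 26.4, 26.6 and 29 TPM at 3 days, against 0.22, 0.15 and 0.16 TPM in the controls, and CYP707A4, which breaks down abscisic acid, 122 ± 16.1 TPM at 3 days and 1.62 ± 0.295 TPM in controls. Ethylene genes gave 11 higher and 7 lower of 24, a direction that turned with scaling (scaled 5 higher and 10 lower). Gibberellin and brassinosteroid genes gave 18 higher and 17 lower of 38 (scaled 11 higher and 19 lower).

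Defence lists diverged. Salicylic acid and immunity genes rose in 14 and fell in 3 of 21 tested (scaled 10 higher and 4 lower). WRKY38 rose (2.33 ± 0.20), while PR5, a classical marker of that hormone, fell (-2.27 ± 0.11) at 1.72 ± 0.164 TPM at 3 days and 12.1 ± 0.947 TPM in controls. Pattern immunity and camalexin genes fell in 14 and rose in 8 of 26 (scaled 4 higher and 18 lower), with PEN3 at the locus AT1G59870, an ABC transporter of defence compounds, at 34.4 ± 3.17 TPM at 3 days and 175 ± 12.9 TPM in controls. WRKY factors fell in 23 and rose in 15 of 53 (scaled 13 higher and 31 lower), and WRKY18 and WRKY46 rose (3.11 ± 0.20 and 3.56 ± 0.11). DIR1, a lipid-transfer protein of systemic resistance, was at 0 in all 3-day libraries, against 22.1, 24.5 and 24.7 TPM in the controls.

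Genes of secondary metabolism moved in both directions. In the KEGG pathway Flavone and flavonol biosynthesis 24 of 33 tested genes rose (scaled 22 higher and 8 lower), the highest median of all 113 pathways with at least 20 tested genes (0.72 above all genes). Under the alternatives this median lay 0.45 to 0.77 above all genes, and that of RNA polymerase 0.56 to 0.78, so the first rank is uncertain. The pathway lists 44 genes, of which the others did not pass the filter. UGT73C1, a glycosyltransferase, had 79.3, 87.7 and 100.3 TPM at 3 days, against 0.39, 0.29 and 0.84 TPM in the controls, and UGT73C6 27.5 ± 6.86 TPM at 3 days and 0.727 ± 0.447 TPM in controls. MYBL2, a repressor of anthocyanin genes, had 1.64, 0.94 and 1.5 TPM at 3 days, against 112, 112 and 127 TPM in the controls, and PAP1 at the locus AT1G56650, an activator, 30.96, 27.04 and 29.2 TPM at 3 days, against 1.21, 1.12 and 0.83 TPM in the controls. In the flavonoid and anthocyanin list 14 rose and 9 fell of 28 (scaled 11 higher and 12 lower). Glucosinolate genes gave 11 higher and 16 lower of 33 (scaled 6 higher and 22 lower), with ESM1 at 1141 ± 61.7 TPM at 3 days and 255 ± 32.8 TPM in controls, and NSP1 at 46.4 ± 5.29 TPM at 3 days and 356 ± 20.2 TPM in controls, 2 proteins that steer glucosinolate breakdown. COR27 and COR28, which link cold and light to the clock, rose (5.40 ± 0.088 and 2.41 ± 0.12), and of the clock list 19 rose and 7 fell of 28 (scaled 12 higher and 10 lower). Senescence and chlorophyll breakdown genes rose in 12 and fell in 4 of 21 (scaled 9 higher and 7 lower), with SAG29, a SWEET-type transporter, at 64.5, 54.3 and 54.4 TPM at 3 days, against 2.64, 1.57 and 2.75 TPM in the controls. Of flowering time genes 14 fell and 7 rose of 27 (scaled 4 higher and 19 lower), and AGL20, a flowering integrator also called SOC1, had 4.41 ± 0.812 TPM at 3 days and 23.2 ± 1.77 TPM in controls. Reactive oxygen enzymes gave 17 higher and 9 lower of 30, but 10 and 16 scaled.

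Large protein families were counted as well. F-box proteins, which pick substrates for degradation, had 276 of 614 members tested, with 215 higher and 20 lower (170 and 47 scaled). A member can pass the filter through its WT 3 days libraries alone, so these counts lean towards genes that rose. The median lay 0.42 above all genes, and 0.08 to 0.69 above under the alternatives. J-domain proteins, partners of HSP70, rose in 69 and fell in 16 of 103 (scaled 58 higher and 27 lower). NAC factors rose in 35 and fell in 7 of 58 (scaled 28 higher and 14 lower), led by NAC044 and NAC085. Cysteine-rich receptor-like kinases fell in 19 of 28 (scaled 5 higher and 20 lower), with CRK21 at 2.35 ± 0.434 TPM at 3 days and 26.9 ± 2.01 TPM in controls. Glutathione S-transferases, which detoxify, fell in 20 and rose in 12 of 40 (scaled 8 higher and 28 lower), GSTF14 falling by -4.23 and GSTU4 rising by 2.87. Protein kinase domain genes rose in 448 and fell in 240 of 832 (scaled 276 higher and 383 lower). Cytochrome P450 genes rose in 73 and fell in 60 of 153 (scaled 56 higher and 71 lower), and CYP71B19 had 123, 124 and 127 TPM at 3 days, against 0.94, 0.41 and 0.77 TPM in the controls.

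Genes often used as references in PCR moved too. Of 16 tested 10 rose and 6 fell (4 and 9 scaled). The actins split: ACT2 had 112, 117 and 114 TPM at 3 days, against 361, 334 and 350.4 TPM in the controls, while ACT8 had 472, 475 and 461 TPM at 3 days, against 221, 197 and 197 TPM in the controls. UBQ10, a polyubiquitin, had 1429 ± 78.2 TPM at 3 days and 857 ± 94.9 TPM in controls, and TUA3, an alpha tubulin, 88.3 ± 4.52 TPM at 3 days and 235 ± 3.99 TPM in controls.

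**Figure D4:**
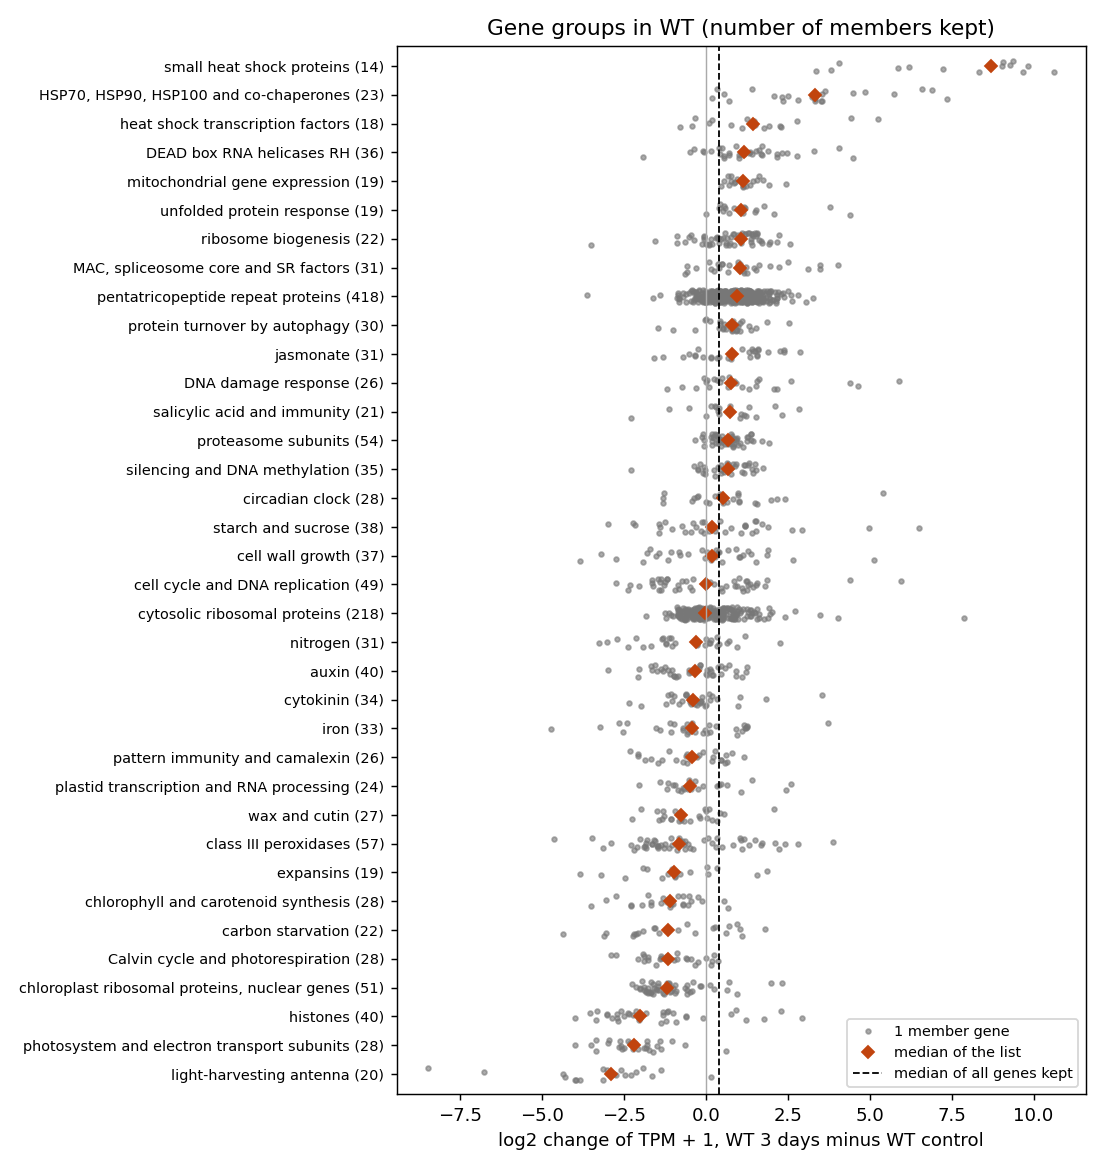
Log2 change of TPM + 1 (WT 3 days minus WT control) of each tested member of 36 gene groups, with the group's median as a diamond, the number of tested members in brackets and the median of all genes at 0.39 as a dashed line. Small heat shock proteins and chaperones lie at the top and antenna proteins at the bottom.

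Across the Pathway Definition column, 37 of the 113 KEGG pathways with at least 20 tested genes had a median above that of all genes. Relative medians ran from -3.06 to 0.72. The lowest after the antenna proteins were Photosynthesis (-1.02), Carbon fixation in photosynthetic organisms (-0.98), Porphyrin metabolism (-0.81) and Pentose phosphate pathway (-0.74). Glycan-degrading pathways, Other glycan degradation (-0.71) and Glycosaminoglycan degradation (-0.68), and Cyanoamino acid metabolism (-0.66), in which BGLU21 and PYK10 are counted, completed the lowest 8. At the top stood, after the flavonols, RNA polymerase, Ribosome biogenesis in eukaryotes, Spliceosome, Viral life cycle - HIV-1 (0.46), Autophagy - other, DNA replication and Nucleocytoplasmic transport (0.38). The name HIV-1 is KEGG's for host genes, and SPT42, a transcription elongation factor, was the member named there (2.23 ± 0.058).

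Other pathways were read beside the ranking. Oxidative phosphorylation had 117 genes higher and 33 lower of 182 tested (scaled 81 higher and 55 lower) and was led by the mitochondria-encoded cox2 and atp1. Protein processing in endoplasmic reticulum had 245 and 45 of 339 (scaled 179 higher and 101 lower), and Citrate cycle (TCA cycle) 35 and 33 of 76, and for the citrate cycle 18 and 46 with median-of-ratios scaling. Fatty acid biosynthesis had 30 higher and 25 lower of 64 (scaled 18 higher and 39 lower, the other way round), and BCCP2, a subunit of acetyl-CoA carboxylase, fell (-3.27 ± 0.13). ADH1, alcohol dehydrogenase, fell (-2.97 ± 0.21) at 14.7 ± 1.797 TPM at 3 days and 122 ± 12.05 TPM in controls.

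**Figure D5:**
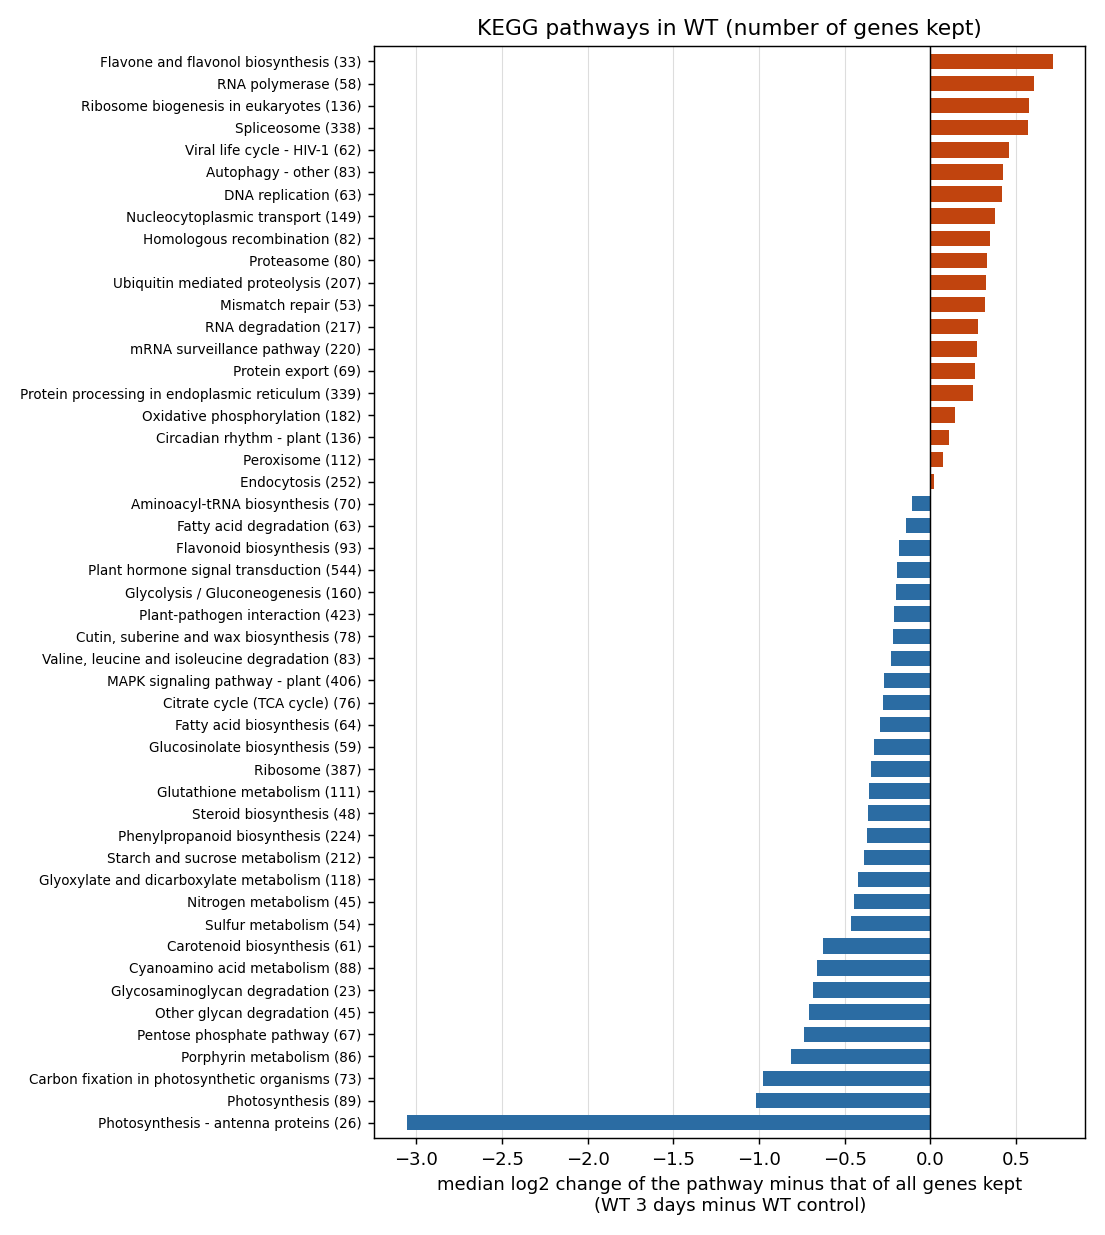
Median log2 change (WT 3 days minus WT control) of each of 49 KEGG pathways less that of all tested genes, with the number of tested genes in brackets. The bar of the antenna proteins reaches -3.06, and the highest bar, flavone and flavonol biosynthesis, 0.72.

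In the GO Description column, 578 terms with 30 to 500 tested genes were ranked in the same way. Among the lowest stood photosystem I (30 of 38 lower), structural constituent of chromatin (47 of 63), chlorophyll biosynthetic process (38 of 46), chloroplast thylakoid lumen (39 of 55) and stromule (26 of 41). TL17 of the thylakoid lumen had 30.3 ± 2.25 TPM at 3 days and 244 ± 15.8 TPM in controls. Among the highest stood protein refolding (29 of 35 higher), heat acclimation (41 of 52), mitochondrion organization (32 of 39) and the U4/U6 x U5 tri-snRNP complex (28 of 31). EMB2770 of that spliceosomal complex had 99.1 ± 4.88 TPM at 3 days and 16.3 ± 0.52003 TPM in controls. Most members of the terms DNA integration and RNA-directed DNA polymerase activity did not pass the filter. They summed over all their 1005 and 534 members to 3491 ± 138 TPM at 3 days and 128 ± 2.83 TPM in controls, and 1751 ± 38.7 TPM at 3 days and 87.1 ± 1.69 TPM in controls. The term killing of cells of other organism summed over its 319 members to 1790.4 ± 207 TPM at 3 days and 2647 ± 91.03 TPM in controls.

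Some genes were listed at 0 in 1 group. RH49, a DEAD box helicase, had 13.9, 16.8 and 16.4 TPM at 3 days and DAF1 13.7, 15.99 and 15.2 TPM, and both were at 0 in the controls. GRXC11, a glutaredoxin, and PDF1.3, a defensin, were at 0 in all 3-day libraries, against 7.52, 7.69 and 10.4 and 20.9, 2.53 and 3.14 TPM in the controls. The small nuclear RNA U2.11 was at 0 in the 3-day libraries, against 69.1, 21.3 and 9.62 TPM in the controls.

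The response was compared with that of the mutant for the 24 genes of the largest WT changes. The WT change that picked them is also subtracted in the difference, so the picking itself favours a smaller response in the mutant. The difference of the responses (mutant 3 days minus mutant control, less WT 3 days minus WT control) passed the test for 17 of 24 (limma, adjusted p under 0.05), where 76.9% of all tested genes did. HSP21 rose by 10.63 log2 units in WT and by 1.97 less in the mutant, and HSP23.6-MITO by 1.55 less. On the log2(TPM + 1) scale the fall of VTL5, AIR1 and LHB1B1 was smaller in the mutant by 3.23, 2.44 and 1.71. The mutant controls of these 3 genes were also lower than WT controls. AIR1 had mutant means of 0.047 TPM at 3 days and 6.19 TPM in control. Its ratio of control to 3 days was larger in the mutant than in WT. LHCB2.3 fell further in the mutant (-1.88). With median-of-ratios scaling all 6 of these differences kept their sign. They were then -1.41 (HSP21), -0.97 (HSP23.6-MITO), 3.63 (VTL5), 2.75 (AIR1), 2.34 (LHB1B1) and -1.49 (LHCB2.3). This scaling divided the WT 3 days libraries by 1.26 to 1.28 and the mutant 3 days libraries by 0.84 to 0.89. The unscaled differences therefore include a downward shift that abundant genes share.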

How the data were processed

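Gene expression of WT and mac3a3b seedlings was measured by RNA-seq in 12 libraries, 3 for each genotype and sampling point. Per the labels' protocols, RNA was selected with oligo dT and made into Illumina TruSeq libraries. The authors deposited 1 table of TPM values per locus. RSEM and TAIR10 are named in the submitters' processing notes, and further steps are not given there. TPM keeps no depth, so no counting error can be given, and the spread of 3 libraries a group sets the precision. The table's 37825 rows were matched by locus to RefSeq gene symbols (37572 matched), 2938 nuclear rows took a name from the table's Swiss-Prot hit, and its Pathway Definition and GO Description columns gave the pathways and terms.

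Values were tested as log2(TPM + 1) with limma 3.58.1 in R 4.3.3 (group means of all 12 libraries, intensity trend, Benjamini-Hochberg over genes with at least 1 TPM in at least 3 libraries, threshold 0.05). A log2 change on this scale understates that of low genes. Sums were tested by exact permutation with scipy 1.17.1. In simulated data with 100 genes changed by 1 and 100 by 0.5 log2 units, 90% and 66% of these changes were called in 22462 genes, with 11 false calls. Unlike the data, few genes were changed there, in both directions evenly and without a shift of the median gene. These rates therefore do not carry over to the comparison of the groups. Same-numbered libraries of both WT groups did not deviate together (r = 0.026, -0.096 and -0.020), so the numbers were not used as pairs. Alternatives were other scalings, pseudocounts of 0.1, other filters, only the 6 WT libraries, no trend, the replicate block and leaving out each library.

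The groups, gene lists and families were chosen with earlier results of these data known. Genes were named by a rule: the 12 largest changes in each direction, the 2 largest called changes per list, family, pathway or term, the highest organelle genes, the 10 highest genes per group and the highest genes listed at 0 in the other group. Exceptions are marked where they occur. No sequence is shown.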

Additional observations from a re-analysis of the deposited data

Results flagged for a closer look

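Of the 24 genes with the largest WT changes, 17 had a response that differed between genotypes (limma interaction, adjusted p under 0.05, mutant response less WT response, log2 units). Picking genes by their WT change favours a smaller response in the mutant, because the same WT change is subtracted. Where a gene rose in WT, a negative difference is a smaller rise in mac3a3b. The small heat shock protein genes had -1.97 (HSP21), -0.997 (HSP17.6II), -0.90 (ATHSP22.0) and -1.55 (HSP23.6-MITO). The mitochondria-encoded genes had -0.46 (cox2), -0.69 (atp1) and -0.97 (atp4). With median-of-ratios scaling these 3, and HSP17.6II, ATHSP22.0, FBA5 and ATCTH, no longer passed, and cox2 turned to 0.10. HSP21 and HSP23.6-MITO then had -1.41 and -0.97. Among genes that fell in WT, a positive difference is a smaller fall in the mutant on the log2(TPM + 1) scale. Such differences were those of VTL5 (3.23), AIR1 (2.44), PMT6 (1.82), LHB1B1 (1.71), MYBL2 (1.23) and MLP328 (0.96). The starting levels of these genes differed: the mutant means at 3 days and in control were 5.72 and 17.66 TPM for VTL5, 0.047 and 6.19 TPM for AIR1, 0.163 and 8.98 TPM for PMT6, 65.2 and 2137 TPM for LHB1B1, 1.32 and 48.8 TPM for MYBL2, and 0.32 and 33.7 TPM for MLP328. In WT the same means were 0.76 and 44.7 TPM for VTL5, 1.71 and 98.3 TPM for AIR1, 0.533 and 44.8 TPM for PMT6, 53.7 and 5925 TPM for LHB1B1, 1.36 and 117 TPM for MYBL2, and 3.23 and 217 TPM for MLP328. For AIR1 and MLP328 these means give a larger ratio of control to 3 days in the mutant than in WT. For VTL5, PMT6, LHB1B1 and MYBL2 they give a smaller ratio in the mutant. The part of the control levels in the differences was not tested. A larger fall on the same log2 scale was measured for LHCB2.3 (-1.88), IRT1 (-1.37), FBA5 (-0.67) and ATCTH (-0.45). For IRT1 the mutant means were 0.613 TPM at 3 days and 113.8 TPM in control, and the mutant control was higher than the WT control. Its ratio of control to 3 days was smaller in the mutant than in WT. The share of all tested genes past the same threshold was 76.9%.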

How the results depend on the processing

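The counts of genes that rose and fell stayed within 1.5 times under each alternative, but median-of-ratios scaling and quantile normalization moved the split to 8924 and 8872 and to 8965 and 8874. Genes at least 2-fold higher at 3 days numbered 3589 and 3674 under these scalings, and genes at least 2-fold lower 3967 and 4134. With median-of-ratios scaling the summed TPM at 3 days over control was 69.9 for mitochondria-encoded, 0.680 for chloroplast-encoded, 1.48 for nuclear ribosomal RNA and 14.3 for transposable element loci, and 709 more genes than in the controls were at 1 TPM or more. Added after the data were seen, leaving out the long rRNA genes gave a mitochondrial ratio of 483, and leaving out the chromosome 2 stretch a transposable element ratio of 18.0. With nuclear TPM the 100 most abundant genes differed by -15.1 percentage points. Left-out libraries gave 11990 to 12186 genes higher and 5644 to 5802 lower.

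The fit with the replicate number as a block gave 12337 genes higher and 5916 lower and changed no call named here. The libraries share only a number. Of 163 lists, pathways and terms, 141 kept the sign of their relative median under every alternative and 22 did not. Among lists described above, those were abscisic acid, ethylene, gibberellin and brassinosteroid, vascular, pollen and seed markers, phosphate, reactive oxygen, reference genes, and starch and sucrose. The cox2 difference between genotypes reversed to 0.10 with median-of-ratios scaling, and those of HSP17.6II, ATHSP22.0, atp1, atp4, ATCTH and FBA5 no longer passed. The factors of this scaling were 1.26 to 1.28 in WT 3 days and 0.92 to 0.93 in WT control. In the mutant they were 0.84 to 0.89 at 3 days and 0.97 to 1.00 in control. Dividing by them raises such differences of abundant genes by a similar amount, whatever the gene. The cause of the unlike factors was not tested. TIC214 lost its call with quantile normalization. Unknown depth limits genes of a few TPM most.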
